A study of Mus musculus with 25 samples.

Results

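RNA splicing factors and DEAD-box and DEAH-box RNA helicases were followed in mouse muscle through 7 days after injury. The genes were chosen by name: every gene with its own probe set whose single annotated symbol begins with Hnrnp, Srsf, Snrp, Sf3, Lsm, Ddx or Dhx, which gave 79 of 8251 genes on the array. They fall into 16 hnRNP genes, 9 SR protein genes, 8 genes of Sm and U snRNP proteins, 8 of the SF3 complex, 8 of LSm proteins and 30 helicases. The 79 genes were measured by 111 probe sets, and for the 25 genes with several the probe set with the highest mean over all arrays was used. All but Ddx4, a helicase of germ cells, passed the filter on dim probe sets, which asked for a signal above the 40th percentile of the array on at least 2 arrays. Of the 78 that passed, 61 were above that level on all 25 arrays.

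The muscles were tibialis anterior, a mostly fast muscle of the shin, from female C57BL/6J mice aged 2 to 3 months. Contraction groups had undergone 150 eccentric contractions in the living animal, in which an active muscle is lengthened, and freeze groups had been touched for 10 s with a steel probe of 6 mm cooled to the temperature of dry ice. Muscles were removed 6 hours or 1, 3 or 7 days later, with 3 arrays a group. Only 2 were given for the 1-day contraction group and 2 for the 7-day freeze group. The controls were 3 uninjured muscles. No transgene or drug is named for any group. A frozen muscle holds dead and spared fibres side by side, so a whole-muscle sample mixes both. Whether any samples came from the same mouse is not given in the labels, and a p-value therefore reflects the scatter of these samples alone, whatever its source.

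Splicing removes introns from pre-mRNA in the spliceosome, a machine built from small nuclear ribonucleoproteins (snRNPs) and many other proteins. Each snRNP carries a short nuclear RNA held in a ring of Sm or LSm proteins, and the SF3 complex of the U2 snRNP settles at the branch point of the intron. SR proteins and hnRNPs bind exons and introns and shift the choice of splice sites, often in opposite directions. DEAD-box and DEAH-box helicases use ATP to remodel RNA and RNA-protein complexes during splicing, mRNA export, translation, decay and the assembly of ribosomes in the nucleolus. Injured muscle is cleared by invading neutrophils and macrophages and rebuilt by dividing satellite cells.

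Signals are given on the linear scale of the deposited values. Changes are differences of mean log2(signal + 13) ± SE, and a fold is 2 raised to that difference, which understates changes of dim genes. A gene is said to have risen or fallen where limma gave an adjusted p under 0.05, with adjustment over all 9506 probe sets tested within a comparison. The array of sample 436, labelled freeze at 3 days, stood apart. It correlated at r = 0.711 with both fellow arrays, samples 450 and 468, and at 0.935 to 0.942 with the controls. Over the genes of the set the same array correlated at 0.843 to 0.877 with its group and at 0.929 to 0.941 with controls. Counts of called genes are therefore given with all 25 arrays and without sample 436. Leaving it out also lowers the common estimate of the spread for the other comparisons (median residual SD 0.323 against 0.385).

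Of the 78 genes, 22 rose and 2 fell in at least 1 injured group, and 54 were called in no comparison with control. Without sample 436, 32 rose, 9 fell and 37 were called in none. Such counts across groups were not made for all genes, whose shares are given group by group below. Rises clustered at 1 and 3 days after freeze and at 3 days after contraction, and Snrpe, Snrpg, Sf3b6, Srsf3 and Dhx9 were called in all 3 of these groups. The moderated F test over all 8 injured groups called 26 of 78 (33.3%, against 28.4% of all 6916 genes tested) and 42 without sample 436 (53.8% against 53.4%). Changed genes were thus about as frequent in the set as on the array. Of the 42 calls of a gene in a group against control, 40 were rises. Among all genes, too, rises outnumbered falls in each of the 8 groups with all arrays. They did so by 38 to 6 at 7 days after contraction and by 685 to 623 at 3 days after freeze. Falls in the set were more frequent without sample 436, such as 6 beside 26 rises at 3 days after freeze.

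After contraction, 6 hours brought a rise of Sf3b1 alone, 1 gene of 78 (1.28%, against 1.71% of all genes), and no fall (0.304% of all genes fell; 6 of the 78 had an unadjusted limma p under 0.05). Without sample 436 Ddx6 also fell, so that 1 rose and 1 fell, where 2.69% and 1.03% of all genes did. At 1 day 0 genes were called, where 1.74% of all genes rose and 0.174% fell, and 9 had an unadjusted p under 0.05. Without sample 436 the count stayed at 0, against 3.43% and 1.29%. At 3 days Dhx9, Lsm7, Sf3b6, Snrpe, Snrpg, Srsf2 and Srsf3 rose, 7 of 78 (8.97% against 5.87%), and 0 fell (2.91% of all genes; 22 unadjusted). Without sample 436 Ddx39b, Ddx54, Ddx56, Hnrnpl, Hnrnpm, Hnrnpr, Sf3b5, Srsf6 and Srsf9 joined them, 16 in all (20.5% against 13.8%), and Ddx27 fell (1.28% against 10.7%). At 7 days 0 genes were called with all arrays (0.549% and 0.0868% of all genes rose and fell; 6 of the 78 unadjusted). Lsm7 and Snrpe rose then without sample 436 (2.56% against 2.47%), with 0 falls against 0.911%.

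After freeze, Sf3b1 rose and Sf3b2 fell at 6 hours (1.28% each, against 3.63% and 1.75% of all genes), joined without sample 436 by a rise of Dhx9 and a fall of Lsm14a (2.56% each, against 6.9% and 5.8%). At 1 day 13 genes rose (16.7% against 9.37%), and 0 fell (5.47% of all genes; 27 unadjusted). They were Ddx21, Ddx49, Ddx54, Ddx56, Dhx9, Hnrnpd, Sf3a3, Sf3b6, Snrpa1, Snrpe, Snrpg, Srsf3 and Srsf9. Without sample 436 they were 20 (25.6% against 15.5%), with falls of Ddx1 and Lsm14b (2.56% against 13%). At 3 days 15 rose (19.2% against 9.9%) and only Ddx27 fell (1.28% against 9.01%). Without sample 436, 26 rose (33.3% against 22.8%) and 6 fell (7.69% against 22.2%). At 7 days Lsm7, Sf3b6 and Snrpe were still raised (3.85% against 3.82%), with 0 falls (1.78%; 17 unadjusted). Without sample 436, 8 rose (10.3% against 12.4%) and Dhx15 fell (1.28% against 8.66%). The 8 were Dhx9, Lsm3, Lsm7, Sf3b6, Snrpe, Snrpg, Srsf3 and Srsf9.

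**Figure D1:**
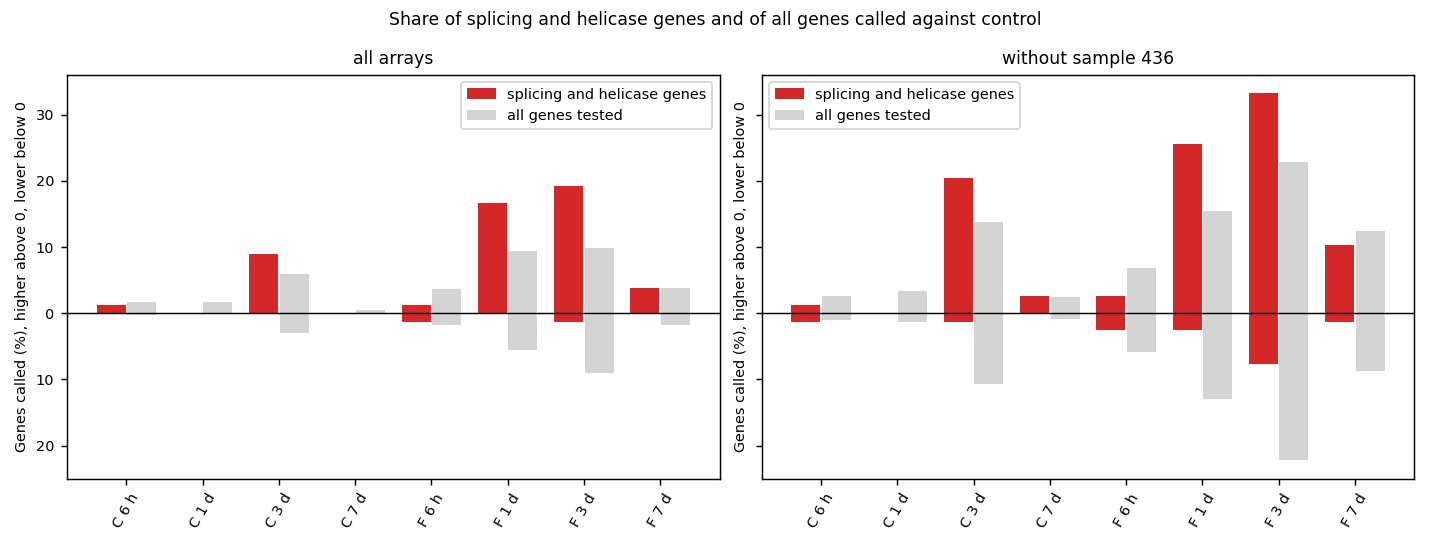
Percent of the 78 splicing and helicase genes (red) and of all 6916 genes tested (grey) called against control at an adjusted p under 0.05 by limma, rises above 0 and falls below, for contraction (C) and freeze (F) at each time, with all 25 arrays (left) and without sample 436 (right). The red bars for rises pass the grey ones at 3 days after contraction and at 1 and 3 days after freeze, and the red bars for falls stay shorter than the grey ones at 3 days after either injury.

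The median of the set was above that of all genes in these groups. The median log2 change of the 78 genes was 0.21 at 3 days after contraction, 0.23 at 1 day after freeze, 0.26 at 3 days and 0.19 at 7 days, where the median of all genes was -0.05, -0.07, -0.07 and -0.04. Without sample 436 the medians at 3 days after freeze were 0.32 and -0.10. At 6 hours it was -0.10 after contraction and 0.04 after freeze, against -0.08 and -0.06. Single arrays held to this order: the median difference from the control mean was 0.20 to 0.25 on the 3 arrays of contraction at 3 days and 0.15 to 0.35 on the 3 arrays of freeze at 1 day. It was 0.12 on sample 436 and 0.27 and 0.35 on samples 450 and 468.

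The tissue itself changed in the same groups and in others, and in whole muscle more cells of a type and more RNA per cell cannot be told apart. All 15 fast fibre markers looked for were on the array and none was at 0, and their summed signal was 147850 to 244690 in controls, 96976 to 124940 at 3 days after contraction and 90822 to 149540 at 1 day after freeze. The sum of 20 macrophage markers was 1011 to 1409 in controls, 12217 to 19453 at 3 days after contraction, 9181 to 12260 at 1 day after freeze and 10877 to 12041 at 7 days. It was 796 at 3 days after freeze on sample 436, the lowest of all 25 arrays, and 38710 and 41728 on samples 450 and 468. The sum of 20 proliferation markers was 1074 to 1133 in controls, 2689 to 3709, 2309 to 2639 and 1967 to 2358 in those groups, and 1167, 6020 and 5694 on samples 436, 450 and 468. No marker of either list was at 0 on any array. The macrophage sum was also above controls where few or no genes of the set rose. It was 3511 to 5977 at 6 hours after freeze, and 2019 to 3073 at 1 day and 2473 to 4802 at 7 days after contraction. The sum of 9 fibroblast markers was 2880 to 5167 in controls and 25329 to 25908 at 7 days after freeze. At 3 days after freeze it was 1738, 13238 and 15829 on samples 436, 450 and 468. Of the 20 macrophage markers 14 and of 19 tested proliferation markers 8 rose at 3 days after contraction, 13 and 6 at 1 day after freeze, and 17 and 13 at 3 days after freeze. Of 14 tested fast fibre markers 6 fell at 3 days after freeze, where their sum was 247040 on sample 436 and 42232 and 53746 on the other arrays. Of 8 tested neutrophil markers 4 rose at 6 hours and 3 at 1 day after freeze, where 3.63% and 9.37% of all genes rose. They were led by S100a9 (5.52 and 4.71 on the log2 scale) and S100a8 (5.47 and 5.24). Csf3r (-0.67 and -0.66), Mpo (-0.97 and -1.28) and Camp (-0.54 and -0.70) of the same list were lower than in controls, without a call. The ratio of 3' to 5' signal of actin, which rises where RNA is shortened, was 0.56 to 0.595 in controls, 0.923 to 1.21 at 3 days after contraction, and 0.657 to 0.955, 1.01 to 1.31, 0.741 to 1.09 and 0.776 to 0.808 at the 4 times after freeze. The same ratio of Gapdh overlapped the controls, 0.869 to 1.13, in each of those groups, with 0.923 to 1.12 at 3 days after contraction and 0.825 to 1.04 at 1 day after freeze. The part of these shifts in the rises of the set was not tested.

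**Figure D2:**
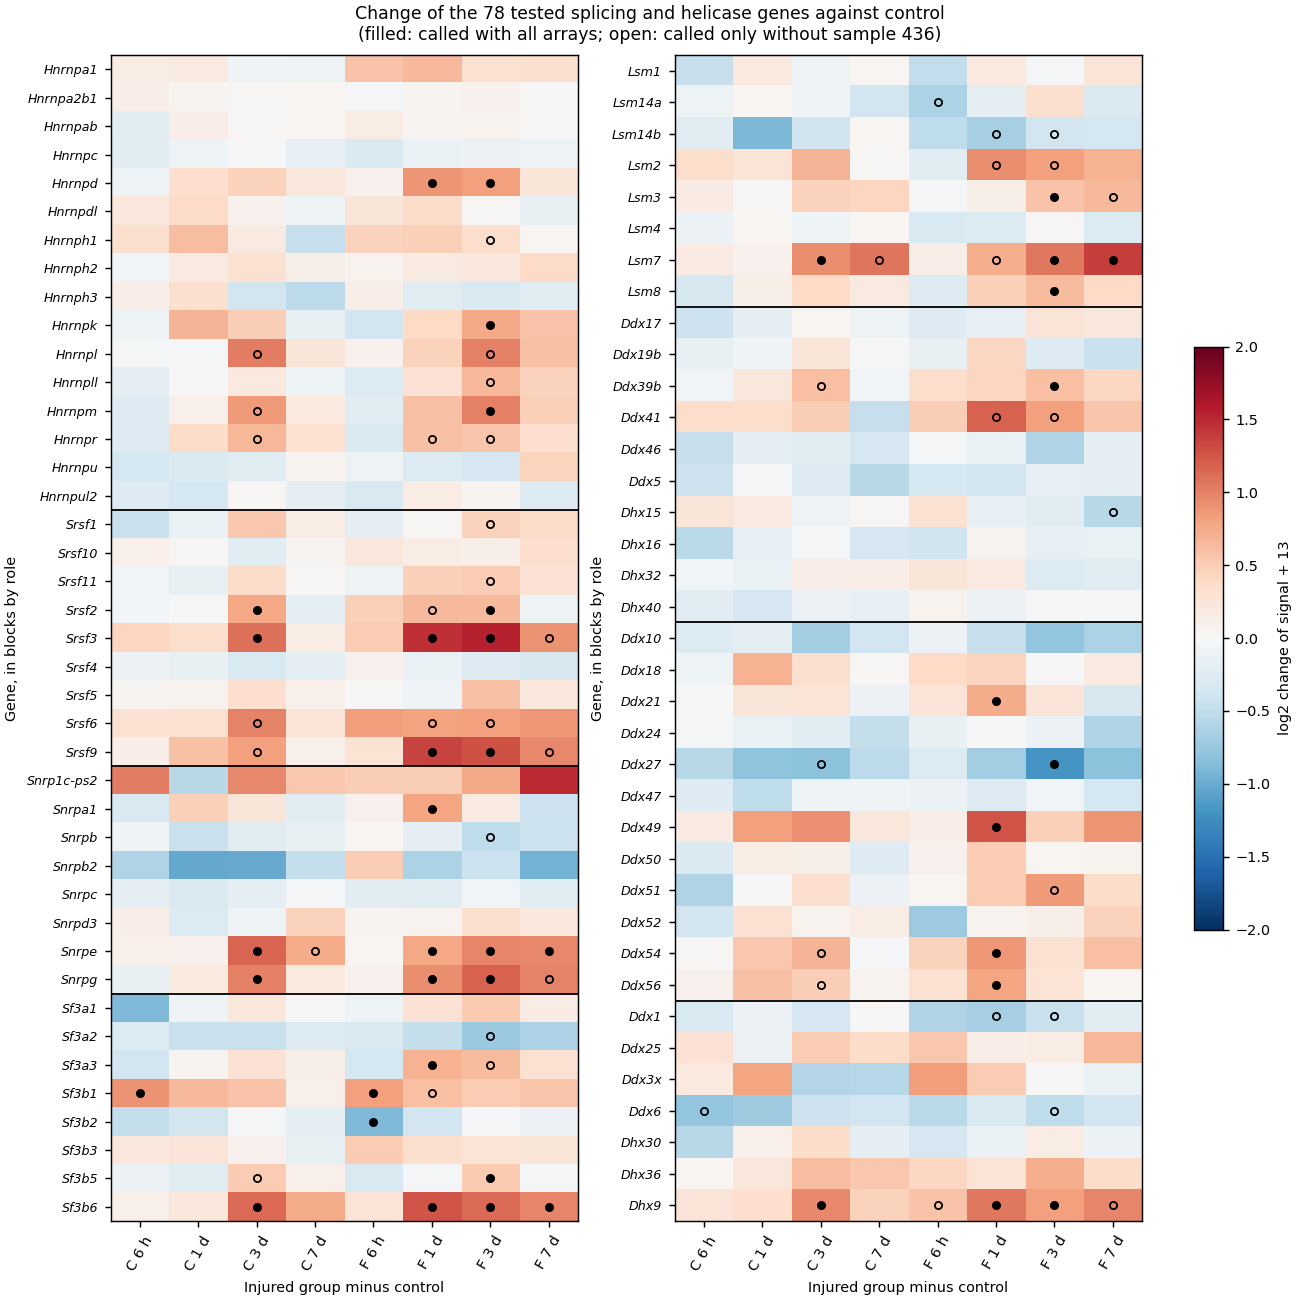
Log2 change of signal + 13 against control for each of the 78 tested genes (rows, in blocks by role; colour scale from blue, lower, to red, higher) in the 8 injured groups (columns; C contraction, F freeze). Filled circles mark calls by limma with all 25 arrays and open circles calls made only without sample 436. Reds gather in the columns of contraction at 3 days and freeze at 1 and 3 days, in rows such as Snrpe, Snrpg, Sf3b6, Srsf3, Srsf9 and Dhx9, while Hnrnpa2b1, Hnrnpc and Lsm4 stay near white.

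Promoters of 5 genes are printed because 4 of them rose together at 3 days after contraction and at 1 and 3 days after freeze (Snrpe, Snrpg, Sf3b6 and Dhx9), while Sf3b1 rose at 6 hours. Srsf3, also called in those groups, is not printed. Each run holds the 250 bases before and 50 bases after the start of the gene, 5' to 3' on the strand of the gene, from RefSeq on GRCm38.p6. They lie at chr1:133610231-133610530 on the minus strand for Snrpe, chr6:86371290-86371589 on the plus strand for Snrpg, chr12:4817358-4817657 on the plus strand for Sf3b6, chr1:153487611-153487910 on the minus strand for Dhx9 and, for Sf3b1, chr1:55027429-55027728 on the minus strand. Capitals mark CCGGAAG on either strand, the core bound by ETS factors such as GABP.
Snrpe: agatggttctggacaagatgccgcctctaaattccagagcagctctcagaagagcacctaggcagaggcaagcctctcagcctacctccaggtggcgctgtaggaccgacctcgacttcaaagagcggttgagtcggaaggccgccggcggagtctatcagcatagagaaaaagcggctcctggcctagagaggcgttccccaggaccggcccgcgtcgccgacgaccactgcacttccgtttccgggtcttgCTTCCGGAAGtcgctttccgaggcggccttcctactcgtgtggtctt
Snrpg: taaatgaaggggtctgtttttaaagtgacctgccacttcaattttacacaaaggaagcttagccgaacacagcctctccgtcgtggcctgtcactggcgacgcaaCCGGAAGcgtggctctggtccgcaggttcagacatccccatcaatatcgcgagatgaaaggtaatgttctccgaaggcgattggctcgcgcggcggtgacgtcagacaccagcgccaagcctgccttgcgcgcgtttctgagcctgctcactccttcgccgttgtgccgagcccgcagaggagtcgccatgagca
Sf3b6: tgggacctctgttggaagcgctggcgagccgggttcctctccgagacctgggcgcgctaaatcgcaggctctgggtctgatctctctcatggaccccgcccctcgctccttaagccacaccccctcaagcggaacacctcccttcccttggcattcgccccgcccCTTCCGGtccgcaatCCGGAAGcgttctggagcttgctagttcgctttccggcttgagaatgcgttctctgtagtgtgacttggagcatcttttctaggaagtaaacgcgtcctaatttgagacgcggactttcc
Dhx9: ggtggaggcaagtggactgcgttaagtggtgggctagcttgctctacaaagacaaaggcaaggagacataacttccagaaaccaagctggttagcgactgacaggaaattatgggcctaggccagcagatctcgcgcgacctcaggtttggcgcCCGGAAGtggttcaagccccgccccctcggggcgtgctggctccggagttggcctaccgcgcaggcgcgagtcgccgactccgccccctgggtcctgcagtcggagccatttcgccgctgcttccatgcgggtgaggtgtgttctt
Sf3b1: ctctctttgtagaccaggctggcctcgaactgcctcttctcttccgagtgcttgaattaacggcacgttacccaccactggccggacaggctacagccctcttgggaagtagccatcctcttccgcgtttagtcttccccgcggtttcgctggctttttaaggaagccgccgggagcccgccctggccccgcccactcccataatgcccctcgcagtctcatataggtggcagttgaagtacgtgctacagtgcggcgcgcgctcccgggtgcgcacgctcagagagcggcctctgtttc
In Snrpe the 2 matches overlap as an inverted repeat, Sf3b6 has 2, Snrpg and Dhx9 have 1 each, and Sf3b1 has none in this window. The promoter of Srsf3, which is not printed, has 0 matches, so the match was not shared by all genes called in those groups.

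Promoters of 71 of the 79 genes could be matched, by symbol, with the first listed start used for each. CCGGAAG was present on either strand in 27 of them (38%), against 11.9% of all 17491 promoters of the same length. It was in 9 of the 25 promoters of genes called by the F test and in 18 of the 45 promoters of tested genes that were not. The GC box GGGCGG was in 69% of the set and 46.3% of all promoters, and the CCAAT box CCAAT in 49.3% and 39%. TATAAA was in 7.04% of the set and 13.3% of all. The E-box CACGTG, bound by MYC, was in 8.45% and 7.9%, the NRF1 core GCATGCG in 7.04% and 4.48%, and the YY1 core AAGATGGC in 4.23% and 3.22%. The E2F sites TTTCGCGC or TTTGGCGC were in 2.82% and 1.07%. Median GC content was 60.7% in the set and 56.3% in all promoters, and some of these motifs are themselves rich in G and C. All motifs were searched on both strands, no motif contains another, and a match is a string of letters, not a measured site.

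Among the 8 genes of Sm and U snRNP proteins, Snrpe and Snrpg rose at 3 days after contraction and at 1 and 3 days after freeze. They encode the Sm proteins E and G, neighbours in the ring around the snRNAs. Snrpe gave 367, 349.8 and 250.2 in controls and 738, 746 and 695 at 3 days after contraction. At 6 hours it was 322, 373 and 331 after contraction and 341, 311 and 331 after freeze, within or near the range of controls. At 1 day after contraction it was 393 and 289, and at 1 day after freeze 608, 468 and 602. Every array of freeze at 1 day was thus above every control, while those of contraction at 1 day were not.

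The rise of Snrpe at 3 days after contraction was 1.16 ± 0.24, or 2.23-fold (adjusted p = 0.00741), and that at 1 day after freeze 0.78 ± 0.24 (adjusted p = 0.0362). At 3 days after freeze the signals were 984 on sample 450, 710.1 on sample 468 and 365 on sample 436, of which the last lay among the controls. The change there was 0.97 ± 0.24 with all arrays and 1.36 ± 0.19 without sample 436 (adjusted p = 0.0159 and 2.66e-06). By 7 days Snrpe was 636 and 629 after freeze, a rise of 0.96 ± 0.27 (adjusted p = 0.0419). After contraction it was 555, 578 and 489 at 7 days, called only without sample 436 (0.74 ± 0.17, adjusted p = 0.0139). The call at 7 days after freeze was lost without 17 of the 25 arrays in turn. The probe set of Snrpe carries the suffix _f, which the maker gives to probes that match several related transcripts.

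Snrpg gave 230.1, 235 and 132 in controls, 396, 370 and 448 at 3 days after contraction and 407, 290.3 and 462 at 1 day after freeze. In both injured groups every array lay above every control. The rises were 1.01 ± 0.28 (adjusted p = 0.0328) and 0.93 ± 0.28 (adjusted p = 0.0326). Samples 450 and 468 of freeze at 3 days reached 689.7 and 541, with 253 on sample 436. The change was 1.19 ± 0.28, or 2.28-fold, and 1.60 ± 0.24 without that array (adjusted p = 0.0146 and 9.52e-06). At 7 days Snrpg remained at 353 and 444 after freeze, called only without sample 436 (adjusted p = 0.0686 and 0.00511), and was at 207, 244 and 217 after contraction.

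Snrpa1, which encodes a protein particular to the U2 snRNP, was called at 1 day after freeze only: 66.7, 70.4 and 68.1 in controls against 135, 102 and 149 (0.79 ± 0.20, adjusted p = 0.0141). At 3 days after freeze it was 93.3 and 82.1 on samples 450 and 468 and 64 on sample 436, with no call. Snrpa1 was 118.8 and 83.6 at 1 day and 88, 75 and 86 at 3 days after contraction, above every control without a call. At 7 days after freeze it was 41.7 and 55.8, below every control, with no call (-0.41 ± 0.23, adjusted p = 0.279). Snrpb, which encodes the Sm protein B, gave 3188, 2581 and 3024 in controls. It was 1711 and 1819 on samples 450 and 468 and 2784 on sample 436, and fell at 3 days after freeze only without the latter (-0.72 ± 0.16, adjusted p = 0.000828; 0.0753 with it). Without sample 436 Snrpb thus fell where Snrpe and Snrpg rose. That contrast rests on 2 arrays of freeze and on 1 of the 2 probe sets of Snrpb, and the other was not called against control. The probe set used carries the suffix _r, a further mark of the maker, as do those used for Snrpb2, Sf3a2 and Ddx27. Snrpb2 was spread within groups, for instance 57.1, 143 and 56.4 at 7 days after contraction, and was not called at any time. Snrpc, a component of the U1 snRNP, ranged from 256 to 423 over all 25 arrays and Snrpd3 from 187 to 446, with no call. Snrp1c-ps2, annotated as a pseudogene, gave 305, 68.7 and 145 on the arrays of freeze at 1 day and was not called.

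**Figure D3:**
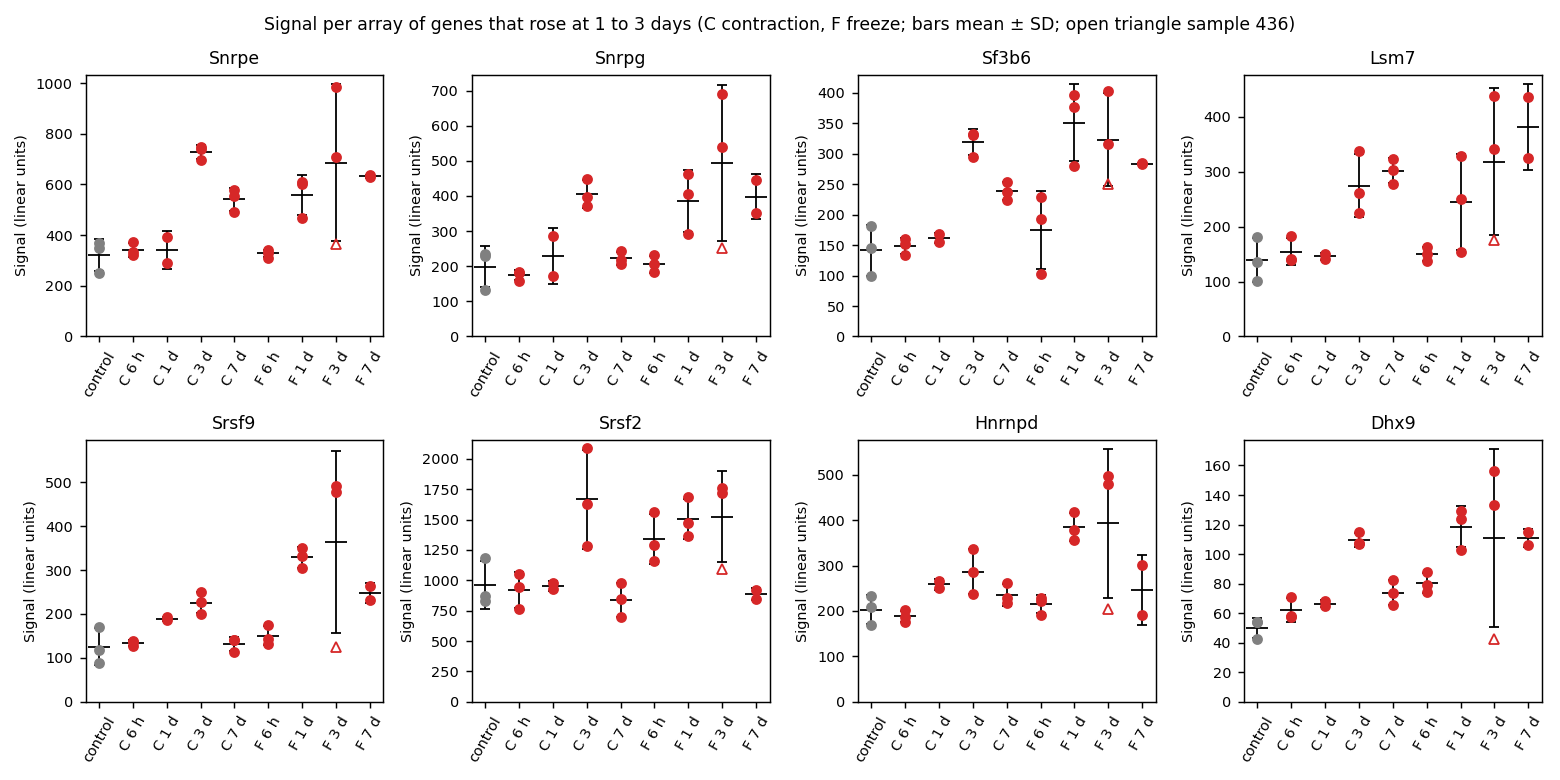
Signal (linear units, y axis from 0) on every array for 8 genes that rose at 1 to 3 days, by group on the x axis (C contraction, F freeze); bars are mean ± SD of the 2 or 3 arrays and the open triangle is sample 436. For Snrpe, Snrpg, Sf3b6 and Dhx9 all 3 arrays of contraction at 3 days and all 3 of freeze at 1 day lie above all 3 controls, and at 3 days after freeze samples 450 and 468 lie above sample 436.

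In the SF3 complex, 8 genes, an early and a late change stood side by side. Sf3b1, which encodes the scaffold that clamps the branch point region, rose at 6 hours after both injuries. Its signals were 105, 124 and 131 in controls, 257, 268 and 184 at 6 hours after contraction and 218, 208 and 242 at 6 hours after freeze, with no overlap with controls. The rises were 0.89 ± 0.22 and 0.83 ± 0.22 (adjusted p = 0.0314 and 0.0263), 1.86-fold and 1.77-fold. A separate probe set for Sf3b1 gave 46.8, 57.1 and 61.2 in controls, 159, 102 and 90.8 at 6 hours after contraction and 63.3, 101 and 98.9 after freeze. It also rose after contraction (0.91 ± 0.23, adjusted p = 0.0401) and was not called after freeze (0.55 ± 0.23, adjusted p = 0.204).

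Later values of Sf3b1 were mostly lower. They were 178 and 215 at 1 day and 149, 233 and 181 at 3 days after contraction, above all controls but not called (adjusted p = 0.287 and 0.0952). At 7 days after contraction they were 156, 109 and 128, and at 7 days after freeze 184 and 180.3. At 1 day after freeze they spread over 130.1, 260.2 and 194, called only without sample 436 (0.60 ± 0.21, adjusted p = 0.0394). The separate probe set was called at that time with all arrays (0.72 ± 0.23, adjusted p = 0.04). The calls at 6 hours rest on few arrays: that after contraction was lost without any 1 of the 3 controls or sample 417 or 431 (adjusted p up to 0.166), and that after freeze without any 1 of the 3 controls or of samples 418, 432 and 446.

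Sf3b2, whose product binds pre-mRNA near the branch point, went the other way at 6 hours after freeze. It gave 117, 107 and 135 against 173, 214 and 322 in controls (-0.88 ± 0.21, 1.84-fold lower, adjusted p = 0.0132), and the call was lost without control 3 or without sample 418 or 432. At 6 hours after contraction its signals were also all below the controls, 151, 172 and 161, but not called (-0.48 ± 0.21, adjusted p = 0.403). From 1 day on the arrays of every group overlapped the controls. Its probe set also has the suffix _f.

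Sf3b6, which encodes a small protein that touches the branch point adenosine, had the smallest F test p of all 78 genes (adjusted p = 0.00109). Its signals were 145, 182 and 98.5 in controls, 168 and 156 at 1 day after contraction and 279, 377 and 397 at 1 day after freeze. At 3 days they were 295, 330 and 333 after contraction and 251, 403 and 316 after freeze, and even sample 436, at 251, was above every control. The rises were 1.26 ± 0.24 at 1 day after freeze, 1.14 ± 0.24 at 3 days after contraction and 1.13 ± 0.24 at 3 days after freeze, 2.39-fold, 2.2-fold and 2.19-fold (adjusted p = 0.00188, 0.00765 and 0.0107). The first and second of these held without any 1 of the 25 arrays. At 7 days Sf3b6 was 283 and 285 after freeze (0.98 ± 0.27, adjusted p = 0.0372) and 237, 225 and 254 after contraction, above all controls but not called (0.74 ± 0.24, adjusted p = 0.234).

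Sf3a3, a subunit that ties SF3a to the U2 snRNP, was tightly held in controls at 129.7, 130.4 and 135 and rose at 1 day after freeze to 268, 204 and 197 (0.70 ± 0.23, adjusted p = 0.048). At 3 days after freeze it was 251 and 285 on samples 450 and 468 and 129 on sample 436, called only without the latter. At 6 hours it was below every control after both injuries, 99.1, 107 and 87.9 and 76.7, 116 and 113, with no call. Sf3b5, the smallest subunit of SF3b, gave 304, 309 and 256 in controls and 362, 526 and 386 at 3 days after freeze (0.52 ± 0.18, adjusted p = 0.0475). It was 446, 393 and 414 at 3 days after contraction, called only without sample 436 (adjusted p = 0.0736 and 0.0275). The calls of Sf3a3 and Sf3b5 with all arrays sit at the threshold. That of Sf3a3 was lost without 21 of the 25 arrays in turn and that of Sf3b5 without 20, among them arrays of other groups. Sf3a2 fell at 3 days after freeze only without sample 436 (-0.93 ± 0.26, adjusted p = 0.00499), and Sf3a1 and Sf3b3 were called in no comparison.

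**Figure D4:**
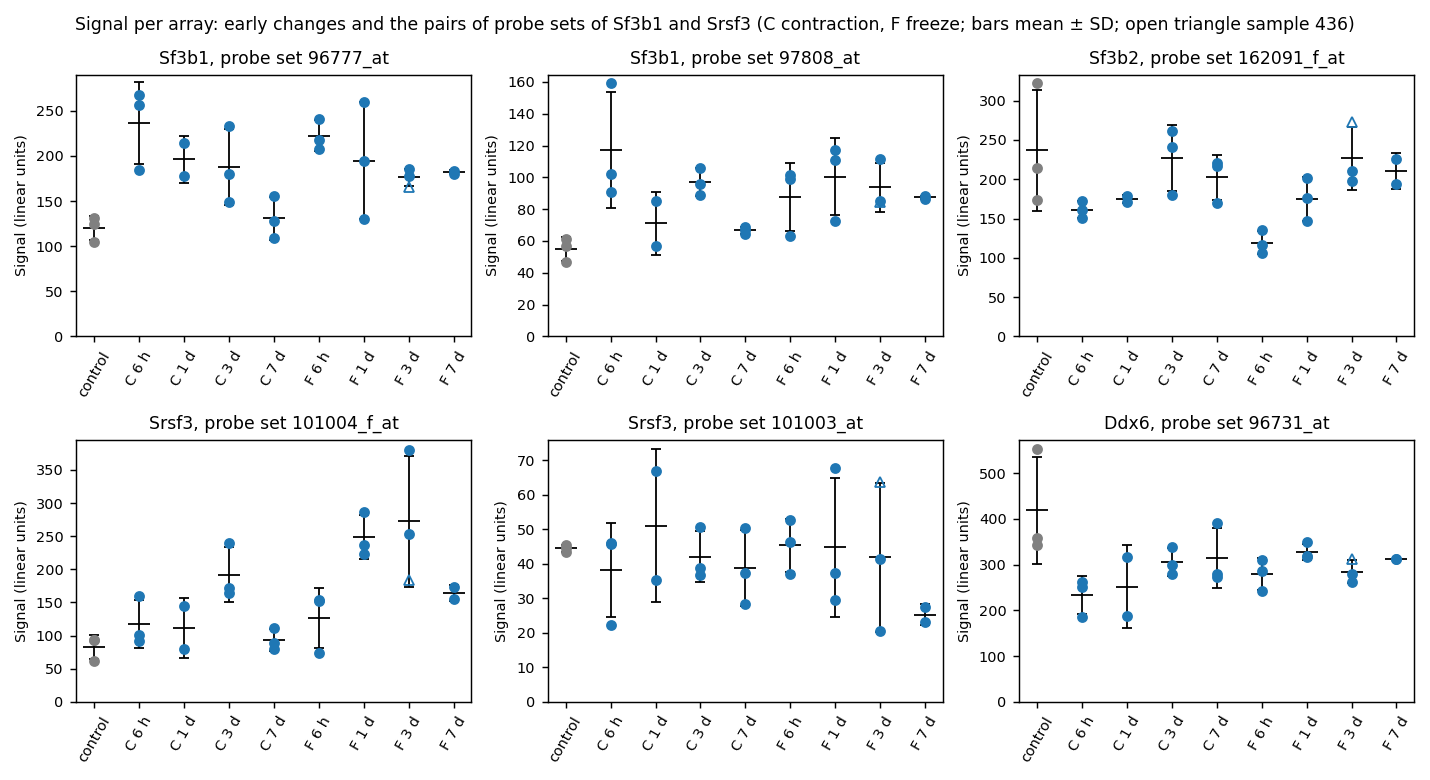
Signal (linear units, y axis from 0) on every array by group (C contraction, F freeze; bars mean ± SD; open triangle sample 436) for both probe sets of Sf3b1 and of Srsf3, and for Sf3b2 and Ddx6. Sf3b1 is above all controls at 6 hours in both of its panels, Sf3b2 is below all controls at 6 hours after freeze, and the left panel of Srsf3 rises at 1 and 3 days while the other shows no rise shared by its arrays.

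LSm proteins form the ring on U6 snRNA in the nucleus and a related ring that starts mRNA decay in the cytoplasm. Of the 8 genes, Lsm7, a subunit of both rings, had the largest rise. Its signals were 181, 136 and 102 in controls, 262, 224 and 338 at 3 days and 278, 303 and 324 at 7 days after contraction, all above the controls. At 7 days after freeze they were 436 and 325, the highest group mean of this gene. The changes were 0.93 ± 0.28 at 3 days after contraction (adjusted p = 0.0462), 1.06 ± 0.28 at 3 days after freeze (adjusted p = 0.0192) and 1.38 ± 0.32, or 2.61-fold, at 7 days after freeze (adjusted p = 0.0159). At 7 days after contraction the change was 1.07 ± 0.28, called only without sample 436 (adjusted p = 0.108 and 0.00953). Lsm7 was also called at 1 day after freeze without sample 436 (0.72 ± 0.23, adjusted p = 0.0219). The call at 3 days after contraction was lost without 18 of the 25 arrays in turn, with an adjusted p of up to 0.163.

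Lsm3 and Lsm8, subunits of the U6 ring, rose at 3 days after freeze by 0.57 ± 0.19 and 0.63 ± 0.21 (adjusted p = 0.0436 and 0.0418). Lsm8 was almost constant in controls at 117, 118 and 114 and gave 156, 201 and 207 at 3 days after freeze. Lsm2, also of this ring, was 147, 158 and 184 at 1 day after freeze against 45.8, 98.1 and 106 in controls and was called only without sample 436 (0.93 ± 0.33, adjusted p = 0.0423). At 3 days after freeze it was 168 and 167 on samples 450 and 468 and 116 on sample 436, again called only without the latter. Lsm4, a further subunit, was not called in any of the 8 injured groups, with differences from -0.30 to 0.03. Lsm1, found only in the cytoplasmic ring, was not called, with changes of -0.50 to 0.26. Lsm14a and Lsm14b, which act with mRNA-storage bodies of the cytoplasm and not in splicing, were called lower and not higher. Lsm14a gave 222, 288 and 353 in controls and 188, 155 and 191 at 6 hours after freeze, a fall only without sample 436 (-0.63 ± 0.19; adjusted p = 0.0522 and 0.018). Lsm14b fell at 1 day after freeze, likewise without that array only (-0.67 ± 0.24, adjusted p = 0.046), and on the same condition at 3 days after freeze.

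Of 9 SR protein genes, Srsf3, Srsf9 and Srsf2 rose and none fell. Srsf9 gave 117, 170.4 and 87.9 in controls and 304, 351 and 332 at 1 day after freeze, a rise of 1.35 ± 0.32, or 2.55-fold (adjusted p = 0.00895), which held without any 1 of the 25 arrays. At 3 days after freeze it was 478 and 491 on samples 450 and 468, and 125 on sample 436. With all arrays the change was 1.27 ± 0.32 and without that array 1.89 ± 0.20 (adjusted p = 0.0167 and 8.95e-08). After contraction at 3 days the signals were 249, 201 and 227, above every control and called only without sample 436 (0.83 ± 0.18, adjusted p = 0.00165). By 7 days Srsf9 was back at 142, 139.6 and 114 after contraction and still 263 and 231 after freeze.

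Srsf3, the smallest SR protein and a link from splicing to mRNA export, depended on the probe set. The one used here, with the suffix _f, gave 61.6, 92.9 and 94 in controls, 172, 239 and 165 at 3 days after contraction and 237, 287 and 223 at 1 day after freeze. At 3 days after freeze it gave 184, 379.5 and 254, all above controls. The rises were 1.10 ± 0.29, 1.46 ± 0.29 and 1.53 ± 0.29, 2.14-fold, 2.75-fold and 2.9-fold (adjusted p = 0.0254, 0.00252 and 0.00866). The other probe set of Srsf3 gave 43.3, 45.4 and 44.5 in controls, 50.5, 38.7 and 36.8 and 29.6, 67.6 and 37.2 in the first 2 of those groups, and changes of -0.07, -0.04 and -0.15, none called. The arrays thus do not settle whether the Srsf3 transcript rose.

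Srsf2, an SR protein known as SC35 and a mark of nuclear speckles, gave 867, 833 and 1185 in controls and 2087, 1279 and 1632 at 3 days after contraction (0.77 ± 0.22, adjusted p = 0.0369). At 1 day after freeze it was 1689.7, 1366 and 1469.8 (0.66 ± 0.22, adjusted p = 0.053, called without sample 436) and at 3 days 1097, 1762 and 1719 (0.64 ± 0.22, adjusted p = 0.0489). At 7 days it was 696, 975 and 848 after contraction and 919.7 and 849 after freeze, overlapping the controls. The call of Srsf2 at 3 days after freeze was lost without 21 of the 25 arrays in turn. A second probe set agreed in size, with 0.68 ± 0.22 at 3 days after contraction (adjusted p = 0.055) 0.73 ± 0.22 at 1 day (adjusted p = 0.0293) and 0.65 ± 0.22 at 3 days after freeze (adjusted p = 0.0432). Srsf6 rose at 3 days after contraction and at 1 and 3 days after freeze without sample 436 only, by 1.00, 0.80 and 1.10. Srsf1 and Srsf11 did so at 3 days after freeze, by 0.83 and 0.85. Srsf4, Srsf5 and Srsf10 were not called in any comparison. A second probe set of Srsf10 was called without sample 436 at 3 and 7 days after freeze (1.56 ± 0.48 and 1.44 ± 0.48, adjusted p = 0.012 and 0.0394). Srsf4, with 168, 139.8 and 173 in controls and 148, 143 and 140.3 at 1 day after freeze, kept within 0.32 of the controls in all groups.

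Among the 16 hnRNP genes Hnrnpd, Hnrnpk and Hnrnpm rose, all at 3 days after freeze, and none fell. Hnrnpd, also known as AUF1, binds AU-rich elements and hastens the decay of cytokine mRNAs. It gave 208, 232 and 169.6 in controls and 358, 379 and 418 at 1 day after freeze (0.89 ± 0.25, 1.85-fold, adjusted p = 0.0212). At 3 days it was 496 and 479.7 on samples 450 and 468 and 204 on sample 436 (0.82 ± 0.25 with all arrays, 1.22 ± 0.19 without). Hnrnpd was 337, 286 and 237 at 3 days after contraction, above all controls, with no call (0.47 ± 0.25, adjusted p = 0.234).

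Hnrnpm gave 259, 305 and 254 in controls, 531, 451 and 528 at 3 days after contraction and 331, 748 and 705 at 3 days after freeze, each array above every control. The rise after freeze was 1.01 ± 0.28 (adjusted p = 0.0227), and that after contraction, 0.86 ± 0.28, was called without sample 436 (adjusted p = 0.0605 and 0.00772). Hnrnpk, which binds runs of C in RNA and DNA, was 97.9, 147 and 152 in controls and 146, 309 and 259 at 3 days after freeze (0.75 ± 0.24, adjusted p = 0.0372). Hnrnpl, which binds CA repeats, and its paralogue Hnrnpll rose at 3 days after freeze only without sample 436, by 1.52 and 1.23 (adjusted p = 0.00104 and 0.00033). For Hnrnpll the 2 other arrays stood at 262 and 308 against 115, 141 and 90.1 in controls. Hnrnpr rose without that array at 3 days after contraction and at 1 and 3 days after freeze, by 0.66, 0.59 and 0.74, and Hnrnph1 at 3 days after freeze by 0.56.

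Several widely studied hnRNPs were called in no comparison. Hnrnpa2b1 gave 1218, 1583 and 1575 in controls and 1663, 1553 and 1315 at 1 day after freeze, and its changes lay between -0.04 and 0.13 over the 8 injured groups. The SE of these changes was 0.18 to 0.20, so small changes are not excluded by them. Hnrnpc, a packager of nascent transcripts, differed from control by -0.29 to -0.01, and Hnrnpu, a scaffold protein of chromatin, by -0.35 to 0.44, with no call. Hnrnpa1 was 90.3, 102 and 120.2 at 1 day after freeze against 42.6, 65.2 and 82.8 in controls, above all of them, and missed the threshold (0.64 ± 0.25, adjusted p = 0.0933). Hnrnpab, Hnrnpdl, Hnrnph2, Hnrnph3 and Hnrnpul2 were also called in no group against control.

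Helicases of splicing and mRNA export, 10 genes, gave 1 call with all arrays. Ddx39b, the UAP56 helicase that loads U2 snRNP and couples splicing to export, gave 514, 604 and 393 in controls and 549, 856 and 941 at 3 days after freeze. It rose there by 0.61 ± 0.21 (adjusted p = 0.0486), a call lost without 22 of the 25 arrays in turn. It was 644, 752 and 894 at 3 days after contraction, above all controls, called without sample 436 (adjusted p = 0.0763 and 0.0145). Ddx41 was dim, with 17.8, 11.7 and 9.5 in controls and 34.4, 52.8 and 50.9 at 1 day after freeze, and rose there only without sample 436 (1.18 ± 0.37, adjusted p = 0.0213). On that condition it also rose at 3 days after freeze, with 62.8 and 44.1 on samples 450 and 468 and 8.5 on sample 436. Dhx15, which takes spent spliceosomes apart, gave 151, 116 and 150.4 in controls and 88.5 and 91.2 at 7 days after freeze, a fall on the same condition (-0.56 ± 0.19, adjusted p = 0.0442). Ddx5 and Ddx17, paired helicases that also act as cofactors of MyoD in muscle differentiation, were not called. Ddx5 differed from control by -0.56 to -0.03 and Ddx17 by -0.41 to 0.26. For Ddx17 the probe sets disagreed: another, with the suffix _f, went from a mean of 107 in controls to 212 at 3 days after contraction, 217 at 3 days after freeze and 247 at 7 days after freeze. It rose at 3 and 7 days after freeze (0.97 ± 0.31 and 1.20 ± 0.35, adjusted p = 0.0379 and 0.0496), and at 3 days after contraction only without sample 436 (0.95 ± 0.29, adjusted p = 0.0217). The other genes of this role were called in no comparison, with changes of -0.60 to -0.04 for Ddx46, a helicase of early spliceosome assembly, and -0.53 to 0.06 for Dhx16, which acts just before the first step of splicing. For Ddx19b, an mRNA export helicase, they were -0.44 to 0.42, for Dhx32 -0.27 to 0.24 and for Dhx40 -0.34 to 0.07.

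Helicases of ribosome assembly, 12 genes, gave 4 rises at 1 day after freeze and none at other times with all arrays. Ddx56 gave 182, 157 and 152 in controls and 282, 295 and 299 at 1 day after freeze (0.79 ± 0.18, 1.73-fold, adjusted p = 0.00589), a call that held without any 1 of the 25 arrays. Ddx54 went from 60, 93.2 and 62.6 to 130, 132 and 158 (0.87 ± 0.21, adjusted p = 0.00986). Ddx21, a nucleolar helicase that senses transcription of ribosomal DNA, went from 98.5, 185 and 142 to 215, 211 and 304 (0.75 ± 0.22, adjusted p = 0.0302). In all 3 genes the arrays of freeze at 1 day lay above every control. By 3 days after freeze they overlapped the controls again, with Ddx56 at 158, 231 and 215, Ddx54 at 79.6, 82.4 and 112 and Ddx21 at 143, 169.5 and 191. For Ddx56 only sample 436, at 158, lay among the controls. After contraction Ddx54 gave 120.6 and 97.5 at 1 day and 104.6, 135.5 and 124.2 at 3 days. Ddx56 gave 216.1 and 290.4, and 264.5, 197.1 and 248.8. All these were above every control, and both genes were called at 3 days without sample 436. Ddx49 was near the floor of the array, 7.7, 24.8 and 5 in controls and 34.2, 43.3 and 60.4 at 1 day after freeze, with a rise of 1.26 ± 0.38 (adjusted p = 0.0309) that the 13 units added make smaller than the ratio of signals.

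Ddx27, also of this group, fell. It gave 197, 191 and 119.6 in controls, 92.6, 80 and 92.6 at 3 days after contraction, and 67.6, 23.9 and, on sample 436, 152 at 3 days after freeze. The fall after freeze was -1.18 ± 0.36 with all arrays and -1.71 ± 0.31 without sample 436 (adjusted p = 0.0314 and 8.79e-05). After contraction it was called only without that array (-0.82 ± 0.27, adjusted p = 0.0344). A second probe set of Ddx27 gave -0.54 ± 0.32 at 3 days after freeze with all arrays and -0.84 ± 0.33 without sample 436 (adjusted p = 0.232 and 0.0421). Ddx10 gave 50.2, 59.2 and 37.4 in controls and 12, 21.8 and 38.1 at 3 days after freeze, overlapping and without a call (-0.79 ± 0.28, adjusted p = 0.0518), and Ddx51 rose at 3 days after freeze only without sample 436 (1.25 ± 0.39). Both are dim. Ddx18, Ddx24, Ddx47, Ddx50 and Ddx52 were called in no comparison, with changes of -0.09 to 0.70, -0.61 to 0.00, -0.51 to -0.05, -0.28 to 0.51 and -0.73 to 0.46 over the 8 injured groups. A second probe set of Ddx24 gave 26.9 to 30.2 in controls and 67.8 to 91 at 6 hours after freeze, a rise only without sample 436 (1.17 ± 0.35, adjusted p = 0.0298; 0.0708 with it). That of Ddx47 was not called, with changes of 0.05 to 0.44.

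Dhx9, or RNA helicase A, which unwinds RNA in transcription and translation and binds double-stranded RNA, was the clearest riser among the 7 other helicases tested. Its signals were 53.9, 42.3 and 54.1 in controls, 107, 115 and 107 at 3 days after contraction and 124, 103 and 129 at 1 day after freeze. At 6 hours after freeze they were 79.3, 74.3 and 87.7, and at 7 days 115 and 106, all above the controls. Contraction arrays at the other times were also above every control, without a call. They gave 71.2, 57.1 and 57.9 at 6 hours, 64.8 and 68.1 at 1 day and 65.5, 82.3 and 73.5 at 7 days. The rise was 0.97 ± 0.27 at 3 days after contraction, 1.06 ± 0.27 at 1 day after freeze and 0.83 ± 0.27 at 3 days after freeze (adjusted p = 0.0344, 0.0138 and 0.0417). Sample 436 gave 42.8, and without it the change at 3 days after freeze was 1.33 ± 0.19, and Dhx9 was also called at 6 hours and 7 days after freeze (adjusted p = 0.0338 and 0.00087).

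Ddx6, which represses and decaps mRNA in P-bodies, gave 343, 359 and 554 in controls and 251, 186 and 263 at 6 hours after contraction. It fell there only without sample 436 (-0.79 ± 0.21; adjusted p = 0.0576 and 0.0268), as it did at 3 days after freeze (-0.57 ± 0.23, adjusted p = 0.0454). Its other probe sets did not settle the direction. One gave 37.7, 8.9 and 35.8 in controls and 47.4, 49.2 and, on sample 436, 93.7 at 3 days after freeze, a rise with all arrays (0.96 ± 0.33, adjusted p = 0.046) but not without sample 436 (0.70 ± 0.35, adjusted p = 0.111). The other was not called, at -0.34 ± 0.24 and, without sample 436, -0.57 ± 0.26. Ddx1, which takes part in tRNA ligation, fell at 1 day after freeze only without sample 436 (-0.67 ± 0.24, adjusted p = 0.0419), as it did at 3 days. A second probe set of Ddx1 fell at 3 and 7 days on the same condition (-0.66 ± 0.21 and -0.61 ± 0.21, adjusted p = 0.0143 and 0.0449). Ddx3x, an X-linked helicase that helps translation start, was called by the F test (adjusted p = 0.0216) but in no single comparison. It gave 399, 389 and 211 in controls, 573, 449.9 and 757 at 6 hours after freeze and 147, 243 and 253 at 3 days after contraction, so that the former were above every control and the latter overlapped them (0.83 and -0.59). Ddx25, a helicase of the testis, Dhx30 of the mitochondrial ribosome and Dhx36, which unwinds G-quadruplexes, were not called against control, with changes of -0.12 to 0.66, -0.55 to 0.37 and 0.04 to 0.72.

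How many arrays carried these counts varied. At 1 day after freeze the count of 13 fell to 4 without sample 464. The count of 7 at 3 days after contraction became 2 without sample 435 or 467 and 4 without control 1 or 3. The count of 16 at 3 days after freeze became 0 without sample 450 or 468, which leaves sample 436 with 1 other array, 7 without control 1, 5 without control 3, and 10 without control 2, sample 418 or sample 440. At 7 days after freeze the count of 3 became 0 without control 3 or either freeze array. Without sample 436 all 42 calls were kept. Calls that no single array could remove were those of Sf3b6 and Snrpe at 3 days after contraction and of Sf3b6, Srsf3, Srsf9 and Ddx56 at 1 day after freeze.

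Whether freeze and contraction differed was tested at each time. With all 25 arrays 0 of the 78 genes were called at any time by limma, where 0.347%, 1.56%, 0.448% and 0.405% of all genes were at 6 hours and at 1, 3 and 7 days, and 4, 9, 0 and 7 of the 78 had an unadjusted p under 0.05. The smallest adjusted p at 1 day was that of Sf3b6, 279, 377 and 397 after freeze against 168 and 156 after contraction. That difference was 1.05 ± 0.27, with an adjusted p of 0.0536 with all arrays and 0.00833 without sample 436. It was also called when control 2, control 3 or sample 432, 446 or 450 was left out, where 1 gene passed.

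Without sample 436, 7 genes were higher after freeze than after contraction at 1 day (8.97%, against 10.8% of all genes in either direction). They were Dhx9, Sf3a3, Sf3b6, Snrpe, Srsf2, Srsf3 and Srsf9, with differences from 0.65 to 1.11. For each of them both arrays of contraction at 1 day lay below all 3 of freeze at 1 day, such as 193 and 186 against 304, 351 and 332 for Srsf9. At 3 days Hnrnpd, Hnrnpll, Sf3a3 and Srsf9 were higher and Ddx27 and Snrpb lower after freeze (7.69% in all, against 18.6%), led by Srsf9 (1.06 ± 0.20, adjusted p = 0.00075). At 7 days Snrpg and Srsf9 were higher after freeze (2.56% against 7.97%), by 0.80 ± 0.24 and 0.85 ± 0.20. At 6 hours 0 were called (against 2.62%), with 6 at an unadjusted p under 0.05. The median difference of the 78 genes with all arrays was 0.13, 0.22, 0.03 and 0.19 over the 4 times, where that of all genes was 0.01, -0.03, -0.02 and -0.02. The set's median at 3 days was 0.12 without sample 436. Macrophage marker sums differed between the injuries at 1 day too, 9181 to 12260 after freeze and 2019 to 3073 after contraction, and their part in these differences was not tested.

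**Figure D5:**
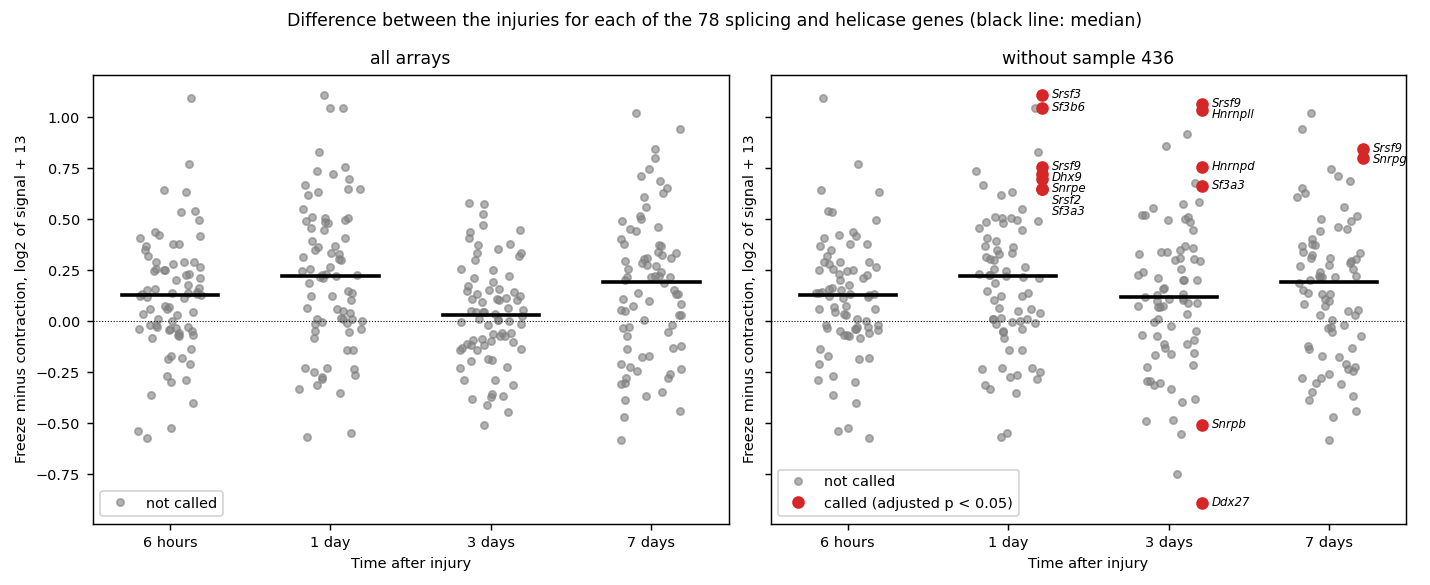
Difference of mean log2(signal + 13) between freeze and contraction at the same time (y axis) for each of the 78 genes at 6 hours and at 1, 3 and 7 days (x axis), with all arrays (left) and without sample 436 (right); grey points were not called, red points were, black lines are medians, and the sideways scatter of grey points carries no meaning. No gene was called in the left panel, and 7, 6 and 2 were at 1, 3 and 7 days in the right panel, all above 0 except Ddx27 and Snrpb.

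Other genes of RNA processing were followed through lists of proteins outside the name rule. Of 44 tested spliceosome proteins without a family symbol, 2 rose at 3 days after contraction (4.55%, against 5.87% of all genes). After freeze 3 rose at 1 day (6.82% against 9.37%), 7 at 3 days (15.9% against 9.9%) and 2 at 7 days (4.55% against 3.82%). With all arrays 0 fell in any group. Without sample 436 the counts of rises were 7 at 3 days after contraction and 6, 10 and 6 at 1, 3 and 7 days after freeze. Those were 15.9%, 13.6%, 22.7% and 13.6%, against 13.8%, 15.5%, 22.8% and 12.4% of all genes. The share at 3 days after freeze was thus above that of all genes with all arrays but level with it without sample 436. U2af1, the small subunit of the factor that reads the 3' splice site, rose by 0.97 at 3 days after contraction, 1.03 at 1 day and 0.95 at 3 days after freeze. Of 25 tested nucleolar genes of ribosome assembly, 6 rose at 3 days after contraction (24%), and 3, 10 and 7 at 6 hours and at 1 and 3 days after freeze (12%, 40% and 28%), against 5.87%, 3.63%, 9.37% and 9.9% of all genes. Nifk alone rose at 6 hours and 1 day after contraction (0.98 and 1.53), and 0 of the 25 fell with all arrays. Those counts were 9, 6, 13 and 12 without sample 436, where 13.8%, 6.9%, 15.5% and 22.8% of all genes rose. They included Nhp2 (1.91 at 3 days after contraction and 1.97 at 1 day after freeze) and Ncl, nucleolin (1.31 and 1.56). The 10 at 1 day after freeze rose in the same group as Ddx21, Ddx49, Ddx54 and Ddx56. Of 8 tested genes of snRNP assembly only Wdr77 rose with all arrays, at 1 day after freeze by 0.78.

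Splicing regulators outside the family names, 44 tested, included larger changes than any in the set. Fubp1 rose by 2.24 at 6 hours and 2.47 at 1 day after contraction and by 2.36 and 2.56 at those times after freeze. Srpk2, a kinase of SR proteins, rose by 2.21 at 6 hours after contraction and 1.42 at 6 hours after freeze, times at which no SR protein gene was called. Tra2b, an SR-like splicing activator, rose by 1.17 and 0.96 in the same groups. Rbm38, which acts in muscle differentiation, fell by 1.12 at 1 day, 1.28 at 3 days and 1.24 at 7 days after freeze. Srpk3, a kinase of SR proteins found in striated muscle, fell by 0.87 at 1 day after freeze and rose by 0.96 at 7 days. After contraction 3, 3, 2 and 0 of the 44 rose at the 4 times (6.82%, 6.82%, 4.55% and 0%, against 1.71%, 1.74%, 5.87% and 0.549% of all genes). After freeze 3, 6, 7 and 3 rose (6.82%, 13.6%, 15.9% and 6.82%, against 3.63%, 9.37%, 9.9% and 3.82%). Falls numbered 2 at 3 days after contraction, where 2.91% of all genes fell. There were 3, 1 and 1 falls at 1, 3 and 7 days after freeze, where 5.47%, 9.01% and 1.78% of all genes fell. Without sample 436 the rises after contraction were 3, 4, 9 and 1 of the 44, against 2.69%, 3.43%, 13.8% and 2.47% of all genes. After freeze they were 4, 12, 15 and 6, against 6.9%, 15.5%, 22.8% and 12.4%.

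Probe sets that the annotation gives to several genes were left out of the set. There were 8 that include a family symbol, of which 6 passed the filter. Of these, 2 rose at 3 days after contraction, 1 at 1 day and 2 at 3 days after freeze. The shares of all genes that rose there were 5.87%, 9.37% and 9.9%. Without sample 436 the counts after freeze were 1, 2, 4 and 1 at the 4 times, where 6.9%, 15.5%, 22.8% and 12.4% of all genes rose. Ddx3y, Ddx39a, Srsf7, Snrpa, Snrpd1 and Snrpn were looked for and had no probe set of their own here. For genes with several probe sets the choice mattered in part: 8 of the 42 calls had another tested probe set of the same gene, which had the same sign in 5 of 8 and was called the same way in 2, and 0 were called the opposite way. Over all groups, 24 further probe sets of 21 genes were tested and gave 7 calls, 5 of them where the probe set used was not called.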

How the data were processed

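Total RNA of tibialis anterior muscles, extracted with TRIzol and RNeasy columns per the labels' protocols, was measured on Affymetrix Murine Genome U74v2 A arrays, 1 per sample, 25 in all. The authors deposited 1 linear intensity per probe set, made with MAS5 according to the submitters' processing notes, and its version is not given in the sources used here. The 2% trimmed mean of each array was 150.09 to 150.13, so the values are read as scaled to a common level, and a change is relative to the other probe sets. No pair of arrays shared more than 0.488% identical values. Arrays have no read depth, and their number limits the precision.

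Probe sets were named through the platform annotation, and old symbols were replaced from a RefSeq gene table. Of 12488 probe sets, 66 were controls. Signals were taken to log2 after adding 13, the 20th percentile of all values. In R 4.3.3 with limma 3.58.1, 1 mean per group was fitted to all 25 arrays (16 residual and 5.46 prior degrees of freedom) with eBayes and a trend, for the 9506 probe sets that passed the filter (signal over the array's 40th percentile, 2 arrays or more). P-values are two-sided with Benjamini-Hochberg adjustment per comparison, called under 0.05. Shares of all genes use 1 probe set for each of 6916 genes. The 12 comparisons share arrays, the 8 against control all sharing the 3 controls. The fit was tested on simulated data.

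Named genes were the 3 called genes with the largest rise and fall of each comparison, the 10 with the smallest F test p, the 2 highest and 2 lowest of each role list at 1 day after freeze, and 29 names listed by role. Others are named to account for every call in a single comparison. Members and lists were chosen with earlier results of these data known. Alternatives were another pseudocount, quantile normalization, centring, no filter, only the groups compared, the second probe set of a gene, and each array left out.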

Additional observations from a re-analysis of the deposited data

Results flagged for a closer look

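For Ddx41 every array of freeze at 7 days was above every control and every array of contraction at 7 days below: 27.2 and 22.7 after freeze, 4.7, 7.2 and 5.1 after contraction and 17.8, 11.7 and 9.5 in controls. The difference between the injuries was 1.02 on the log2 scale, with no call by limma (SE 0.49, adjusted p = 0.459 with all arrays and 0.157 without sample 436), and all these signals are near the floor of the array.

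For Hnrnph3 at 1 day the order was the reverse: 119, 126 and 117 after freeze, 186 and 184 after contraction and 178, 131 and 130.3 in controls. The difference between the injuries was -0.57, also with no call (SE 0.23, adjusted p = 0.227 and 0.115).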

How the results depend on the processing

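All 42 calls of single genes against control were kept with a pseudocount of 32, 38 with quantile normalization, 35 with each array centred on its median, 33 without the filter on dim probe sets and 21 when the fit held the compared groups alone. With each array left out in turn, between 14 (without control 3) and 42 (without sample 436) were kept. The compared groups alone gave 0 genes at 6 hours after contraction, 1 at 6 hours and 0 at 3 days after freeze, and 4 and 2 between the injuries at 1 and 7 days. A pseudocount of 32 gave 1 gene between the injuries at 1 day, and no filter gave 10 at 3 days after freeze. The second probe set of a gene left 1 call at 6 hours after freeze, and turned Srsf3 to -0.07 at 3 days after contraction, -0.044 at 1 day and -0.146 at 3 days after freeze, and Ddx6 to 0.962 at 3 days after freeze. The causes were not tested.

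With each array left out in turn the count of called genes after contraction ranged from 0 to 2 at 6 hours, 0 to 0 at 1 day, 2 to 17 at 3 days and 0 to 2 at 7 days. After freeze it ranged from 0 to 4, 4 to 22, 0 to 32 and 0 to 9. Between the injuries it ranged from 0 to 0, 0 to 7, 0 to 6 and 0 to 2, and for the F test from 20 to 42. Where an array left out leaves 1 in a group, that array is assumed to vary like the other groups. Quantile normalization split the calls at 3 days after freeze into 13 rises and 3 falls and centring into 11 and 2, where the values as deposited gave 15 and 1. Centring took the median of all genes at 1 day after freeze from -0.07 to -0.15. No paired analysis was made, because the groups share no sample numbers. Contraction and freeze samples of 1 time often carry adjacent numbers, such as 417 and 418, but the labels do not say what the numbers mean, so they were not used as pairs. With 2 or 3 arrays per group and dim probe sets such as Ddx41, Ddx49 and Ddx51 near the array floor, changes of 1 log2 unit and more can go uncalled, as that of Lsm7 at 7 days after contraction did.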
